A study of Mus musculus with 16 samples.

Results

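CTCF crosslinks to RNA as well as DNA, and the regions described here are CLIP peaks that lay opposite a listed nuclear transcript. A peak was a member when it overlapped by at least 1 bp a nuclear RNA-seq row of day 3 or day 0 on the opposite strand and no row of either day on its own strand. Members were thus selected on the strand and position of the peaks and rows alone. The rule was met by 8704 of 599274 peaks on chromosomes 1 to 19 and X, of which 1363 and 2482 came from the day 3 libraries and 1637 and 3222 from the day 0 libraries. The row opposite a member is called its host. Rows of both days that overlapped on one strand were merged, which gave 42918 regions, and 3476 of them were hosts.

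The cells were mouse embryonic stem (ES) cells of a female hybrid line, and the study set CTCF's RNA contacts beside where it sits on chromosomes. Day 3 cells had been kept without LIF, the cytokine that holds mouse ES cells undifferentiated, and off the plate for 3 days. Day 0 cells were adherent cultures with LIF. CLIP, in which UV light fixes a protein to the RNA it touches, was done with anti-Flag M2 beads on 2 libraries a day. CTCF ChIP with an anti-CTCF antibody had 1 day 3 library and 2 day 0 libraries, and rRNA-depleted, strand-marking (dUTP) nuclear RNA-seq had 1 library a day. The strain label of the CLIP and RNA-seq samples was CAST/Ei x 129/Sv/Jae, and that of the ChIP samples was 129S1/CastEiJ x 129S1. The labels do not describe the construct that the Flag beads bind or name a clone, and nothing in them says that libraries of one day came from separate cultures, so the spread between them may be technical. Neither the no-UV CLIP controls nor the ChIP inputs are set beside the values, as they were not analysed here. The RNA-seq rows carry assembly identifiers without gene names, so ES cell markers could not be checked, and regions are given by position in build mm9.

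As background, CTCF is a zinc-finger protein that marks insulators and the borders of chromosome domains, and RNA takes part in some of its chromatin contacts. Nuclear RNA includes introns, RNA made past the annotated end of a gene, and short-lived RNA made upstream of promoters in the opposite direction. Where genes face each other, RNA running past one gene's end is antisense to the other gene.

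Members were a small share of every library. They made up 1.28% (exact 95% interval 1.22 to 1.35) and 1.50% (1.44 to 1.56) of the peaks of day 3 replicates 1 and 2. In day 0 replicates 1 and 2 they made up 1.44% (1.37 to 1.51) and 1.51% (1.46 to 1.56). These intervals are Clopper-Pearson and cover counting error only, and the shares are set by the rule and carry no test. Sense peaks, those overlapping only a row on their own strand, numbered 93003 and 142534 at day 3 and 97878 and 182948 at day 0. Requiring 50% of a peak to lie in the row left the mean antisense share at 1.42%, against 1.43% with 1 bp, so few members only grazed their host. That setting left the other part of the rule, no row on the peak's own strand, unchanged.

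Per base, the opposite strand of transcribed DNA held few peaks. Both classes were counted over the same 772.3 Mb, the DNA listed as transcribed on one strand only. Antisense peaks had 1.76 and 3.21 peaks per Mb at day 3 and 2.12 and 4.17 at day 0. Sense peaks had 120 and 185 peaks per Mb at day 3 and 127 and 237 at day 0, which is 68.2, 57.4, 59.8 and 56.8 times the antisense density of the same library. Since the rule itself divides the peaks by strand, these ratios are a description.

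Antisense peaks gathered toward the end of the host, its 3′ part. When each host was cut into 10 equal parts from start to end, the last decile held 30.7% and 23.8% of members at day 3 and 27.9% and 29.9% at day 0. The last decile held 11.5% and 11.2% of sense peaks at day 3 and 14.3% and 12.2% at day 0, and 10.0% of the bases of the space. The first decile held 5.50% and 7.01% of members at day 3 and 5.74% and 4.41% at day 0, below its 9.50% of the bases. In all 4 libraries the members' share grew from the seventh part to the last, where sense peaks stayed close to level until the last part.

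**Figure D1:**
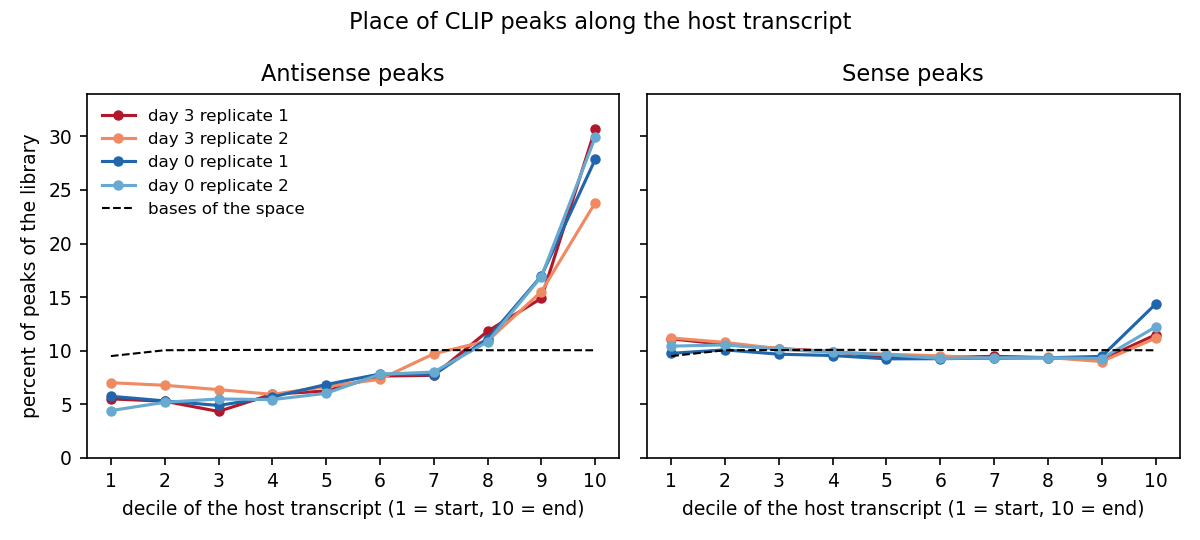
Percent of the peaks of each CLIP library (y axis) in each decile of the host transcript (x axis, 1 at the start), for antisense peaks on the left and sense peaks on the right; lines join the points of one library and the dashed line is the share of bases. The last decile holds 23.8% to 30.7% of antisense peaks and 11.2% to 14.3% of sense peaks.

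Measured in fixed distance, members were also found within 1 kb of host boundaries more often than sense peaks. Counted per peak, the median host length was 40889 and 52151 bp for members at day 3 and 43751 and 46783 bp at day 0. For sense peaks it was 75649 and 68290 bp at day 3 and 68428 and 68639 bp at day 0. A 1 kb window is a larger part of a shorter host, and host length was not matched at host ends or starts. Within 1 kb of the host end lay 16.7% and 12.6% of members at day 3 and 13.1% and 13.3% at day 0. For sense peaks these shares were 5.62% and 5.52% at day 3 and 7.58% and 6.28% at day 0, and such positions made up 2.82% of the bases. Antisense minus sense averaged 7.65 ± 2.37 percentage points (SD, n = 4 libraries) and was above 0 in 4 of 4. An exact two-sided sign-flip permutation test over the libraries gave p = 0.125, the smallest that 4 libraries allow. After Benjamini-Hochberg adjustment over 8 such differences it was 0.143. The 8 include density and opposite-strand pairs, which only describe the split of peaks by strand. The host-end difference averaged 1.79 points when members within 5 kb of a row on their own strand were left out and all sense peaks were kept. In the lowest library, day 0 replicate 1, it was then 0.16 points, so close to none was left there.

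Within 1 kb of the host start lay 8.58% and 7.90% of members at day 3 and 6.66% and 5.52% at day 0. The shares of sense peaks there were 3.39% and 3.47% at day 3 and 3.56% and 3.50% at day 0, with 2.27% of the bases. The difference averaged 3.68 ± 1.41 points (SD, n = 4), above 0 in 4 of 4 libraries, with the same exact permutation p = 0.125. Without members within 5 kb of a same-strand row, and with all sense peaks kept, it was 2.19 points, and 0.95 in the lowest library. Members near the start thus exceeded their share of bases although the first decile as a whole did not.

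Many members lay just beyond a listed transcript on their own strand. The nearest same-strand row ended within 5 kb upstream of the peak for 34.7% and 26.5% of members at day 3 and for 31.9% and 33.8% at day 0, in a part that made up 3.21% of the bases. A nearest same-strand row that started within 5 kb downstream was found for 15.6% and 12.4% of members at day 3 and 15.3% and 14.6% at day 0, with 6.35% of the bases. The other 49.7% and 61.1% at day 3 and 52.8% and 51.6% at day 0 lay farther from any same-strand row, in 90.4% of the bases. Gaps of up to 10 kb with a same-strand row on either side held 19.1% and 13.2% of members at day 3 and 18.8% and 19.3% at day 0, although they made up only 1.10% of the bases.

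The density of members fell with distance past a same-strand end. In the first 1 kb it was 33.4 and 39.8 peaks per Mb at day 3 and 34.9 and 79.2 at day 0. More than 100 kb past the nearest such end it was 0.33 and 1.17 at day 3 and 0.43 and 0.86 at day 0. Peaks in no listed transcript on either strand also thinned out with distance, and the slopes were not compared by a test. They had 56.1 and 84.9 peaks per Mb in the first 1 kb at day 3 and 69.6 and 130 at day 0. Their densities beyond 100 kb were 0.65 and 1.44 at day 3 and 0.74 and 1.34 at day 0. Before a same-strand start members had 11.0 and 12.6 peaks per Mb within 1 kb at day 3 and 10.7 and 21.7 at day 0, and 0.82 and 1.92 beyond 100 kb at day 3 and 1.01 and 2.24 at day 0.

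**Figure D2:**
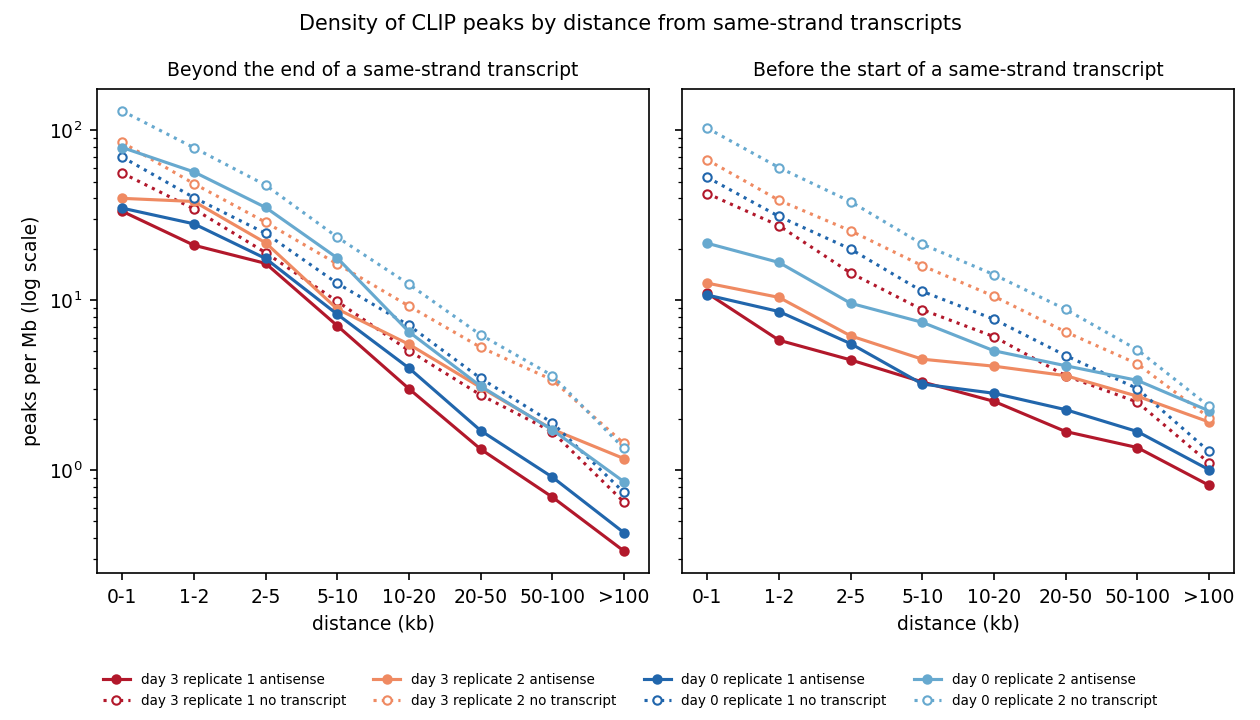
Peaks per Mb (y axis, log scale) by distance in kb (x axis, unequal bins) beyond the end (left) or before the start (right) of the nearest same-strand transcript; filled points and solid lines are antisense peaks, open points and dotted lines are peaks in no listed transcript, 1 line per library. In the first 1 kb beyond an end the antisense density is 33.4 to 79.2 peaks per Mb, and beyond 100 kb it is 0.33 to 1.17.

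The same-strand rows that ended just upstream of members often carried CLIP peaks themselves. Of members past such an end, 51.4% and 50.5% at day 3 and 44.6% and 51.6% at day 0 followed a row with a peak of the same library, while 24.5% and 28.7% of all regions held one at day 3 and 25.1% and 29.6% at day 0. The rows that ended upstream had median lengths of 2786 and 1664.5 bp at day 3 and 1735 and 1457 bp at day 0, against 849 bp for all regions, and longer rows have more room for a peak. For members before a same-strand start, the row that followed held a peak in 18.8% and 25.7% of cases at day 3 and in 21.2% and 29.0% at day 0, below the share of all regions in each library. Those rows had median lengths of 613 and 722 bp at day 3 and 666.5 and 614.5 bp at day 0. Whether RNA reaching past the listed ends carried these members was not tested.

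Nearness to same-strand rows moved with several other measures. Past a same-strand end, 40.8% and 40.9% of members at day 3 and 38.5% and 43.2% at day 0 were in the last decile of the host. Among members farther than 5 kb from any same-strand row the last decile still held 24.96% and 17.6% at day 3 and 24.0% and 23.4% at day 0, in 9.79% of the bases. The end-ward placing was therefore smaller, but present in all 4 libraries, away from listed same-strand rows. Within 1 kb of the host end, these farther members had shares of 10.0% and 7.32% at day 3 and 7.75% and 7.04% at day 0.

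Hosts were long. The median host region was 32048 bp, and 144 hosts with members in all 4 libraries had a median of 54875.5 bp. Rows of both days listed 2978 hosts, with 121 listed only at day 3 and 377 only at day 0. At least one same-strand CLIP peak of its own was present in 83.7% of hosts, against 38.1% of all regions, and host length was not matched in that comparison. Members were found in 1 library in 2309 hosts, in 2 in 718, in 3 in 305 and in 4 in 144. The last group held 1917 members, 22.0% of them all. For 33.0% of members, another member of the same library lay in the same locus. A locus here is a chain of members of any library, each within 1 kb of the next. Members of one host are thus not independent of each other.

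Few exact positions recurred. Overlapping members of all libraries formed 8403 sites, of which 8172 held peaks of 1 library, 209 of 2, 14 of 3 and 8 of 4. Members within 1 kb of each other formed 6041 loci, and 31 of those held all 4 libraries. In the other library of the same day, 3.30% and 1.73% of members were overlapped by a peak on the same strand at day 3 and 3.54% and 1.80% at day 0. For sense peaks this share was 12.8% and 8.23% at day 3 and 19.1% and 10.5% at day 0. Antisense minus sense averaged −10.1 ± 3.88 percentage points (SD, n = 4), below 0 in 4 of 4 libraries, with an exact sign-flip permutation p = 0.125, the smallest possible.

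The order was the other way when repeats were set against how much of the space the other library covered. Antisense-strand peaks covered between 0.00780% and 0.0164% of the space bases, and the bases of members were under peaks of the other same-day library 123 to 149 times as often as that. Sense peak bases were covered 10.5 to 13.5 times as often as the space was. Shares across days and within a day spanned like ranges: 1.69% to 4.40% of members were repeated across days and 1.73% to 3.54% within a day. These ratios are descriptions, since the clustering of members near same-strand rows is shared by the libraries.

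None of the 8 sites found in all 4 libraries overlapped a CTCF ChIP peak. Of all members, 14.2% to 18.4% per library overlapped one, so with 8 sites this is not read as a trait of them. The one with the most peak bases, chr4:79648662-79648746 on the minus strand, had 76 and 70 peak bases at day 3 and 79 and 66 at day 0. Its highest peak score ranked at percentile 99.8 and 96.9 of the strand's list at day 3 and at 99.8 and 99.96 at day 0. It lay inside a 1058 bp host, 553 bp past the end of a same-strand row and 67940 bp from the nearest ChIP peak. It thus ranked high by score in each of the 4 libraries, lowest in day 3 replicate 2.

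A pair of neighbouring sites, chr1:24619383-24619541 and chr1:24619301-24619376 on the plus strand, shared a 297 bp host. The first had 81 and 145 peak bases at day 3 and 20 and 34 at day 0. The second had 50 and 17 at day 3 and 76 and 27 at day 0. Host-strand peaks of the same library overlapped 3 of the 7 peaks of the first and 4 of the 5 of the second.

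At chr9:96971887-96971985, on the minus strand, there were 60 and 66 peak bases at day 3 and 28 and 94 at day 0. It lay 1 bp before the start of a same-strand row and 200 bp from a ChIP peak, and its 5247 bp host was listed only at day 3. At chr4:101026961-101027033, on the minus strand, there were 53 and 19 peak bases at day 3 and 47 and 40 at day 0, 511 bp past a same-strand end. Its peaks ranked unevenly by score, from percentile 2.66 in day 3 replicate 2 to percentile 53.9 in day 3 replicate 1.

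A second pair on chromosome 12 lay in a 138585 bp host without any sense peak. The site chr12:103491804-103491864, on the minus strand, had 4 and 42 peak bases at day 3 and 35 and 51 at day 0. Its neighbour, chr12:103491683-103491758, had 2 and 48 at day 3 and 33 and 36 at day 0. Both were almost empty in day 3 replicate 1 and lay over 20 kb from any same-strand row. The last of the 8 sites, on chromosome 18, had 1 and 75 peak bases at day 3 and 39 and 35 at day 0 in a host of 353 bp.

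Hosts were ranked by antisense peak bases per Mb of all peak bases of the library, which corrects for the size of the peak lists. The host with the highest mean, chr17:70871485-71170753 on the plus strand, had 67.5 and 62.6 at day 3 and 122 and 102 at day 0, from 52 members. Both day 3 values were below both day 0 values. Its place in the order depended on the libraries used: without day 0 replicate 1 its mean was 77.2, below those of the hosts on chromosomes 9 (103), 12 (83.2) and 7 (80.0) described next, and without day 3 replicate 1 it was 95.3, below the chromosome 12 host at 100.3. The members were placed late in this host, at a median of 88.0% of its length, and 17 of the 52 overlapped a ChIP peak. Sense peaks of this host numbered 1 and 0 in day 3 replicates and 0 and 2 in day 0 replicates. Peaks over rows of both strands are left out of such counts.

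The second host, chr12:20202341-20422295 on the minus strand, had 38.0 and 83.6 antisense peak bases per Mb at day 3 and 89.1 and 128 at day 0. Both day 3 values were below both day 0 values. It had no sense peak in any of the 4 libraries. The 13 same-strand rows nested opposite the host had few peaks, 2 and 3 in day 3 replicates and 0 and 1 in day 0 replicates, and 64.9% of the members lay in short gaps between same-strand rows.

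The third, chr9:100498217-100858964 on the plus strand, had 92.3 and 105 antisense peak bases per Mb at day 3 and 11.4 and 112 at day 0. Day 0 replicate 1 stood apart from the other 3 libraries, and without it the mean was 103 instead of 80.2. This host was also densely bound on its own strand, where day 3 replicates had 65 and 93 sense peaks and day 0 replicates 79 and 169. Members lay at a median of 95.5% of its length.

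The host chr7:150292940-150612955 on the plus strand had 136 and 24.0 antisense peak bases per Mb at day 3 and 44.3 and 79.9 at day 0, so libraries of one day differed more than the day means. Of its 44 members, 93.2% lay in gaps of up to 10 kb between same-strand rows. Those rows, 21 of them nested opposite the host, carried many peaks, 104 and 69 in day 3 replicates and 28 and 138 in day 0 replicates. Sense peaks of the host numbered 0 and 3 at day 3 and 0 and 5 at day 0, a count without the stretches opposite those rows. The members here thus lay between rows of a peak-rich minus strand, none of them overlapping a ChIP peak.

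A like arrangement was present at chr19:57684860-57806281 on the plus strand, where all 28 members lay in such gaps. It had 41.4 and 24.7 antisense peak bases per Mb at day 3 and 50.8 and 66.4 at day 0, and both day 3 values were the lower. At chr12:87762555-87863273 on the plus strand, 86.0% of 43 members lay in gaps, and antisense peak bases per Mb were 21.6 and 59.8 at day 3 and 69.8 and 116 at day 0, again lower in both day 3 libraries. Day 3 replicates had 26 and 89 sense peaks in this host, and day 0 replicates 96 and 205.

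At chr19:23833366-24024087 on the plus strand, antisense peak bases per Mb were 18.7 and 57.2 at day 3 and 129 and 84.7 at day 0, with 79.1% of 43 members in gaps. At chr11:117883037-117990533 on the minus strand, they were 24.4 and 29.4 at day 3 and 100 and 52.0 at day 0, and this host was not listed in the day 3 RNA. At both, the day 3 and day 0 libraries did not overlap.

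The remaining hosts of the leading 10 had wider-spaced members. At chr3:84300015-85691606 on the minus strand, 1391592 bp long, antisense peak bases per Mb were 36.9 and 81.6 at day 3 and 79.5 and 40.1 at day 0. At chr11:51763384-52097086 on the minus strand they were 25.03 and 50.6 at day 3 and 78.1 and 25.1 at day 0. In these the days overlapped. Of their members, 14.7% and 11.5% lay in short gaps. Both day 3 values were below both day 0 values in 6 of the 10 hosts. The share of all hosts with this pattern was not counted, so it is not read as a day difference. Of the 1167 hosts tested by limma, 633 had a lower fitted value at day 3 and 534 a higher one. The adjusted limma p-values of the 10 were 0.72 to 1.00 (Benjamini-Hochberg), and none passed.

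**Figure D3:**
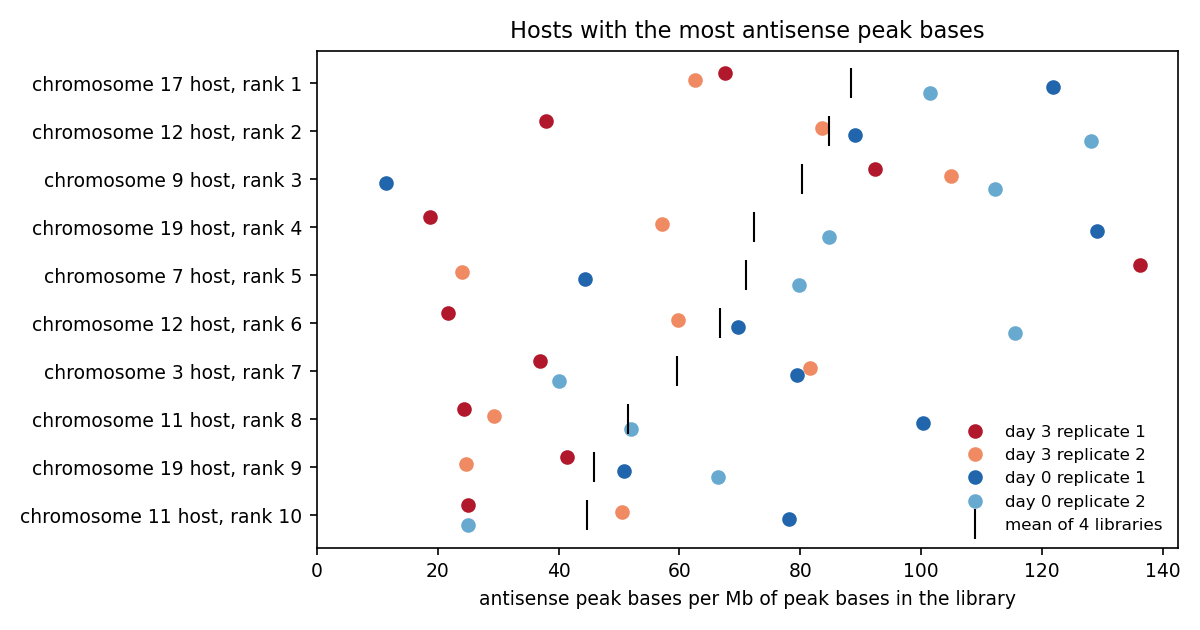
Antisense peak bases per Mb of all peak bases of the library (x axis) for the 10 hosts with the highest mean among those with members in all 4 libraries (rows); dots are libraries and the black bar is their mean. Values run from 11.4 to 136, and libraries of one day are often far apart.

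Members overlapped CTCF ChIP peaks slightly more often than sense peaks, by less than the spread over the libraries. A peak of any of the 3 ChIP lists overlapped 18.4% and 15.0% of members at day 3 and 16.1% and 14.2% at day 0. For sense peaks the shares were 13.8% and 14.1% at day 3 and 14.5% and 14.1% at day 0, and ChIP peaks covered 9.60% of the space bases. Antisense minus sense averaged 1.82 ± 1.94 percentage points (SD, n = 4), above 0 in 4 of 4 libraries (exact sign-flip permutation p = 0.125) and as small as 0.13 in day 0 replicate 2. Without day 3 replicate 1 the mean was 0.90. Without members within 5 kb of a same-strand row, and with all sense peaks kept, the mean was −0.09. The direction thus did not hold for members away from listed same-strand rows.

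Members were overlapped by a ChIP peak in 19.5% and 18.2% of cases past a same-strand end at day 3 and in 18.2% and 14.9% at day 0. Away from same-strand rows the shares were 16.4% and 12.4% at day 3 and 14.3% and 12.9% at day 0, lower in each library. A ChIP peak within 1 kb was found for 31.9% and 28.0% of members at day 3 and 28.4% and 27.6% at day 0, and for 26.7% and 27.3% of sense peaks at day 3 and 27.4% and 27.3% at day 0. The median distance to the nearest ChIP peak, with overlap as 0, was 2960 and 3463.5 bp for members at day 3 and 3161 and 3451.5 bp at day 0. For sense peaks it was 3627 and 3438 bp at day 3 and 3489 and 3492 bp at day 0, so members lay nearer in 3 of 4 libraries and farther in day 3 replicate 2.

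Peaks directly opposite each other were rare. A host-strand peak of the same library overlapped 24 and 68 members at day 3 and 29 and 99 at day 0, or 1.76% and 2.74% of members at day 3 and 1.77% and 3.07% at day 0. By bases, 1.03% and 1.63% of member bases at day 3 and 0.663% and 1.67% at day 0 lay under a host-strand peak, while such peaks covered 0.533% and 0.762% of the space at day 3 and 0.546% and 0.920% at day 0. Seen from the host strand these are the same pairs, so the shares of sense peaks, 0.028% to 0.057%, differ through the size of the class. The difference of shares was 2.29 ± 0.66 points (SD, n = 4; exact sign-flip permutation p = 0.125) and adds nothing to the pairs themselves.

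In score, a value the authors' lists give each peak without a unit, members ranked slightly below sense peaks. The median percentile within the list of the strand was 48.2 and 41.9 for members at day 3 and 48.3 and 46.1 at day 0, and 50.1 and 49.5 for sense peaks at day 3 and 50.1 and 50.2 at day 0. The difference averaged −3.84 ± 2.70 percentile points (SD, n = 4), below 0 in 4 of 4 libraries (exact sign-flip permutation p = 0.125). Median widths were 46 and 34 bp for members at day 3 and 47 and 40 bp at day 0, and 47 and 36 bp for sense peaks at day 3 and 46 and 37 bp at day 0. Widths differed in no common direction (mean difference 0.25 ± 2.22 bp, SD, n = 4; exact sign-flip permutation p = 1).

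Chromosome X held 37 and 106 members at day 3 and 47 and 95 at day 0. This was 2.71% and 4.27% of members at day 3 and 2.87% and 2.95% at day 0, while X held 4.09% of the space bases. For sense peaks the X share was 4.67% and 4.64% at day 3 and 5.18% and 5.15% at day 0. The members' share was below that of sense peaks in each library, least so in day 3 replicate 2. A lower share was not particular to X. Chromosome 13 held 3.08% and 3.26% of members at day 3 and 2.81% and 2.73% at day 0. Its shares of sense peaks were 4.41% and 4.06% at day 3 and 4.10% and 4.17% at day 0. Members were also the lower in each library on chromosomes such as 1, 14 and 18, and the higher on chromosomes 7 and 11. Allele-assigned X members were few: 8 cas and 5 mus, and 15 and 10, in day 3 replicates 1 and 2, and 7 and 7, and 10 and 7, in those of day 0. The exact interval of the cas share ran from 31.6% to 86.1% in day 3 replicate 1, which is too wide to show an imbalance.

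**Figure D4:**
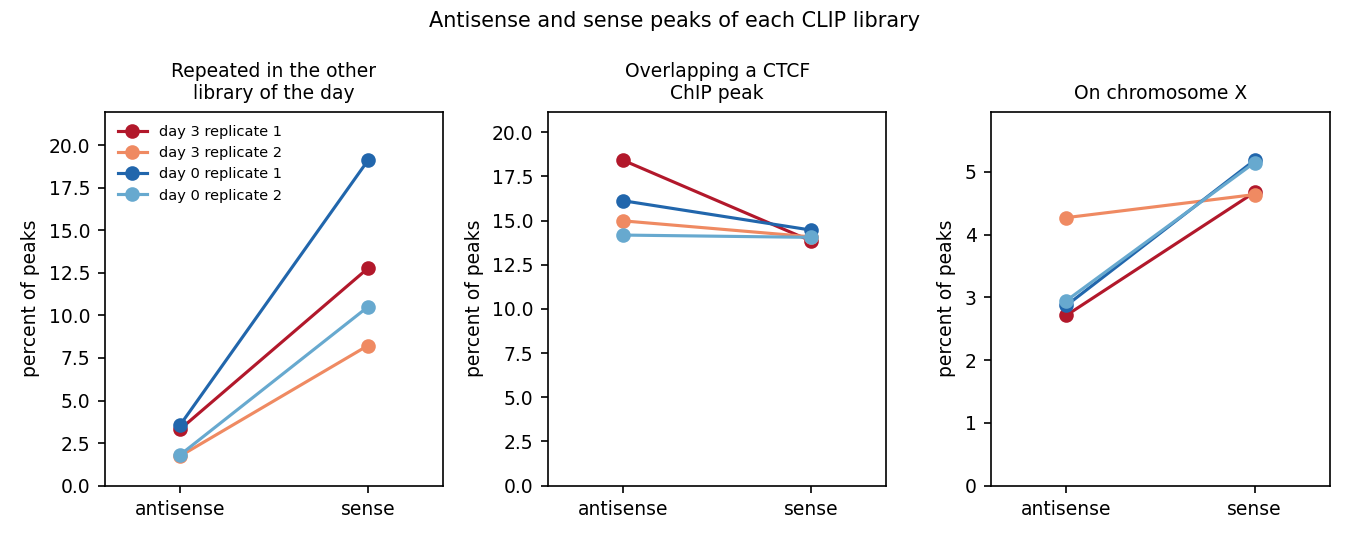
Percent of antisense and sense peaks (y axes, each from 0) repeated in the other library of the day, overlapping a CTCF ChIP peak, and on chromosome X; each line joins the 2 classes of one CLIP library. Repeats are 1.73% to 3.54% of antisense and 8.23% to 19.1% of sense peaks. ChIP overlap is 14.2% to 18.4% of antisense and 13.8% to 14.5% of sense peaks. The X share is 2.71% to 4.27% of antisense and 4.64% to 5.18% of sense peaks.

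The days did not differ in antisense share beyond the spread of the libraries. The antisense share of peaks differed by −0.08 percentage points between day 3 and day 0 (exact two-sided permutation p = 0.667, with 0.333 the smallest that 2 against 2 libraries allow). The sign of this difference rested on day 3 replicate 1, the smallest list, without which it was 0.02.

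Host by host, no antisense signal passed the test between days. limma was fitted to log2 of peak bases per Mb plus 1 over 13492 pairs of region and strand with peaks in at least 2 libraries, and none had a Benjamini-Hochberg adjusted p under 0.05, so the share called was 0%. Of the 3476 hosts, 1167 had members in enough libraries to be tested, and none was called, and the smallest adjusted p among them was 0.21. Unadjusted p-values under 0.05 were found for 1248 of all pairs, 9.25%, and for 233 of the tested hosts. Hosts that entered through both libraries of one day alone had to differ, so the larger share among hosts is set in part by the filter and is not read as a result.

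Counted by library, members in both day 3 libraries and neither of day 0 were present in 84 hosts, and in both day 0 libraries and neither of day 3 in 143. The counts of other pairs of libraries lay on either side of these: 40 hosts had members only in the replicate 1 libraries, 213 only in the replicate 2 libraries, 126 only in day 3 replicate 1 with day 0 replicate 2, and 112 in the opposite pair. The replicate 2 libraries, the longer list of each day, shared the most.

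Of the hosts with members at one day only, those with the largest differences had short stretches of peak. At day 3 alone, chr17:15533210-15570544 on the plus strand had 200 and 95 antisense peak bases, and none in either day 0 library. The host chr2:30141917-30199799 on the plus strand had 98 and 187 at day 3 and none at day 0. The other 3 day 3 hosts, chr19:6062821-6080324, chr11:75401418-75442306 and chr4:44134765-44136995, had 79 to 154 bases in each day 3 library and none at day 0.

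At day 0 alone, chr1:8771612-9289590 on the minus strand had no antisense peak bases at day 3 and 97 and 245 at day 0. The host chr9:26904969-26963003 on the minus strand had none at day 3 and 113 and 210 at day 0. The other 3, chr12:111975819-112033238, chr17:47277891-47496407 and chr7:63097115-63185868, had none at day 3 and 87 to 227 bases in each day 0 library. All 10 had adjusted limma p-values of 0.21 or 0.22 (Benjamini-Hochberg), so none passed the test.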

How the data were processed

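Of 16 samples, 9 had files used here. The submitters' processing notes list build mm9 and Novoalign 3.00.03, TopHat2 2.0.8, Cufflinks 2.1.1, cutadapt 1.0, Trim Galore 0.3.3, bedtools 2.17.0 and SAMtools 0.1.18. The notes give no role for these, with the peak caller not given in the sources used here. Peak lists were deposited by the authors per library with a score per peak, used here only for ranks within the list of a strand. Their RNA-seq rows, also deposited, hold a value taken as FPKM from the naming of Cufflinks alone, and short rows can have very high values. Read depth is unknown for all lists.

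Members, alternatives and the rule for named regions were chosen with earlier results of these data known. Strand letters w and c were read as plus and minus. Named are the sites found in all 4 libraries (8 of the 10 the rule allowed), the 10 hosts with the highest mean antisense peak bases per Mb, and 5 hosts per day with members at that day alone. The classes by same-strand rows, the deciles and the X shares were added after values were seen.

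Antisense and sense values of a library were paired, and differences were tested by exact sign-flip permutation over 4 libraries. Days were compared by exact permutation and limma 3.58.1 in R 4.3.3. A fitted fold depends on the pseudocount of 1 where a day has no peak, so none is given. The interval code and the limma fit were tested on simulated data. Other tools were SciPy 1.17.1, NumPy 2.4.6, pandas 2.3.3 and matplotlib 3.10.9 under Python 3.11.15.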

Additional observations from a re-analysis of the deposited data

Results flagged for a closer look

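The difference in median peak width between antisense and sense peaks pointed one way at day 3 and the other at day 0. Antisense peaks were 1 and 2 bp narrower than sense peaks in the day 3 libraries and 1 and 3 bp wider in the day 0 libraries, so that the day 3 difference minus the day 0 difference was −3.5 bp. It was noticed because both libraries of a day moved alike, and the difference between the days was not tested.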

How the results depend on the processing

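The exact p of the antisense minus sense differences could not pass 0.05 with 4 libraries, so only values and directions are compared. Removing members within 5 kb of a same-strand row, with all sense peaks kept, lowered the mean antisense share to 0.77%, against 1.43%. It lowered the share of members in the last decile of the host to 22.5%, against 28.1%. It turned the ChIP difference to −0.0944 points and the day difference of shares to 0.00705 points. Under other alternatives the mean ChIP difference stayed above 0, but not always in each library. Its lowest library value was −0.21 with rows of the library's own day, −0.15 with rows of FPKM of at least 1, and −0.02 without chromosome X. Keeping only rows with FPKM of at least 1, on the host strand and the peak's own strand alike, gave an antisense share of 1.29%. The width difference of 0.25 bp was 0 with 50% overlap and without members near same-strand rows. It was −0.25 with FPKM of at least 1, −0.375 in the upper 50% of scores, and −0.67 to 1.00 bp leaving out each library. Leaving out each library gave a day difference of −0.192 to 0.0244 points. The other mean directions held under every alternative run. Host end ran from 1.79 to 12.8 points, host start from 2.19 to 4.24, repeats from −17.7 to −6.43 and score from −5.38 to −2.02. Opposite-strand pairs ran from 1.62 to 2.56 points and density from −193 to −82.4 peaks per Mb. Both of these describe the split of the peaks by strand, so their kept signs are not read as results. limma called 0 pairs under every alternative, with 468 to 1582 at an unadjusted p under 0.05, with the replicate block included, and the day difference of shares had exact permutation p = 0.5 with the replicate block. Same-numbered libraries of the days did not deviate together (r = 0.01 over all tested pairs of region and strand), so the numbers were not taken as pairs. The listed extent of transcripts, the unknown depth and the controls not analysed here limit all values.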
